A study of Homo sapiens with 9 samples.

Results

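The RNA described here is that read by 143 probe sets of a human array which were higher in PC3 cells with osteoblasts than in PC3 cells alone on every co-culture array but 1. PC3 is a human prostate cancer cell line from a bone metastasis. Osteoblasts are the cells that build bone, and sclerostin (SOST) and DKK1 are secreted inhibitors of Wnt signaling that act on them. A probe set is a group of short probes for 1 stretch of RNA, and 1 gene can have several, often at different places along its transcripts or on different 3' ends. Of 54613 probe sets that are not array controls, these 143, or 0.262%, met a rule on the deposited values: at least 0.7 above the mean of the untreated arrays on the log2 scale on each of the 2 OB SostKO arrays, the 2 OB WT + rhDKK1 arrays and OB WT + rhSOST arrays 1 and 2, and at most 0.2 above it on OB WT + rhSOST array 3. Those 6 arrays are called the arrays held high. The measured values chose the members, so their values against untreated PC3 and on rhSOST array 3 are a description with no test.

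All samples were PC3 cells after 48 h, on human U133 Plus 2.0 arrays from Affymetrix: 2 arrays of cells with osteoblasts from the calvaria of Sost knockout mice (OB SostKO), 2 with wild type mouse osteoblasts and 100 ng/ml recombinant human DKK1 (rhDKK1), 3 with wild type mouse osteoblasts and 100 ng/ml recombinant human sclerostin (rhSOST) and 2 of cells grown alone (untreated PC3). The osteoblasts sat on inserts in the wells, apart from the PC3 cells. No array held PC3 cells with wild type osteoblasts and no added protein, so protein and osteoblasts cannot be told apart. The labels call arrays of a group biological replicates and say nothing of separate cultures or animals, so any p measures the spread between these arrays. Values are log2 values after RMA, which evens out the arrays' distributions, and the array medians lay between 5.45 and 5.52. Fewer cells of a type and less RNA per cell cannot be told apart in such samples.

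rhSOST array 3 stood apart from its replicates. Of 33970 probe sets kept by a filter on low values (at or above the 40th percentile of the array on at least 2 arrays), 760 were at least 1 lower on it than the mean of rhSOST arrays 1 and 2, and 3 were at least 1 higher. On the controls that compare the 3' with the 5' end of a transcript, the GAPDH difference was 0.42 on rhSOST array 3, against 0.12 to 0.21 on the arrays held high and 0.15 and 0.24 in untreated PC3. The control for Alu repeats read 14.28 to 14.34 on the arrays held high, 14.10 on rhSOST array 3 and 14.13 and 14.15 in untreated PC3. Spiked poly-A controls averaged 6.38 to 7.22 on the 7 co-culture arrays and 10.99 and 11.66 on the untreated arrays. The ACTB 3' to 5' difference was 0.99 to 2.06 on the co-culture arrays and 0.50 and 0.88 on the untreated arrays. On rhSOST arrays 1, 2 and 3 it was 2.06, 1.44 and 1.32, so array 3 did not stand apart on ACTB as it did on GAPDH. The part of these differences in the members' values was not tested. Epithelial markers averaged 12.59 to 12.71 on the co-culture arrays and 12.60 and 12.63 on the untreated arrays. Of 13 osteoblast markers, 7 passed the filter, and SP7, DMP1, SPP1, COL1A2, SOST and OMD did not. The list averaged 5.08 to 5.20 on the co-culture arrays and 5.18 and 5.08 on the untreated arrays. COL1A1 read 8.68 to 9.77 on the co-culture arrays and 9.13 and 8.92 on the untreated arrays. RUNX2 read 8.62 to 9.16 and 8.91 and 8.87. COL3A1, which also passed, read 4.92 to 5.28 on the co-culture arrays and 4.83 and 4.70 on the untreated arrays. ALPL read 4.67 to 4.88 and 5.08 and 4.78, and IBSP 5.03 to 5.10 and 5.05 and 5.04. SPARC read 4.61 to 4.94 and 4.94 and 4.78, and PHEX 6.03 to 6.32 and 6.13 and 6.11.

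With rhSOST array 3 set aside, the members were higher by similar amounts in all 3 co-cultures. The rule asked for at least 0.7 on each of these arrays, so a rise in all 3 follows from the choice of members. The difference from the mean of the untreated arrays is called the rise, whatever its sign. Its median was 1.13 and 1.18 on the OB SostKO arrays, 1.20 and 1.04 on the rhDKK1 arrays and 1.17 and 0.94 on rhSOST arrays 1 and 2, while it was -0.22 on rhSOST array 3. Averaged over the arrays held high, the median rise was 1.11, a 2.15-fold difference, with a range of 0.77 to 2.82. It was at least 1 in 97 members and at least 2 in 4. On rhSOST array 3 the values ranged from -1.41 to 0.19, and 119 members were at least 1 below the mean of the other rhSOST arrays. There, 67 members lay below both untreated arrays, 72 between them and 4 above both. The plot of the members on each array shows the 6 columns above 0.7 and rhSOST array 3 among the untreated values.

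**Figure D1:**
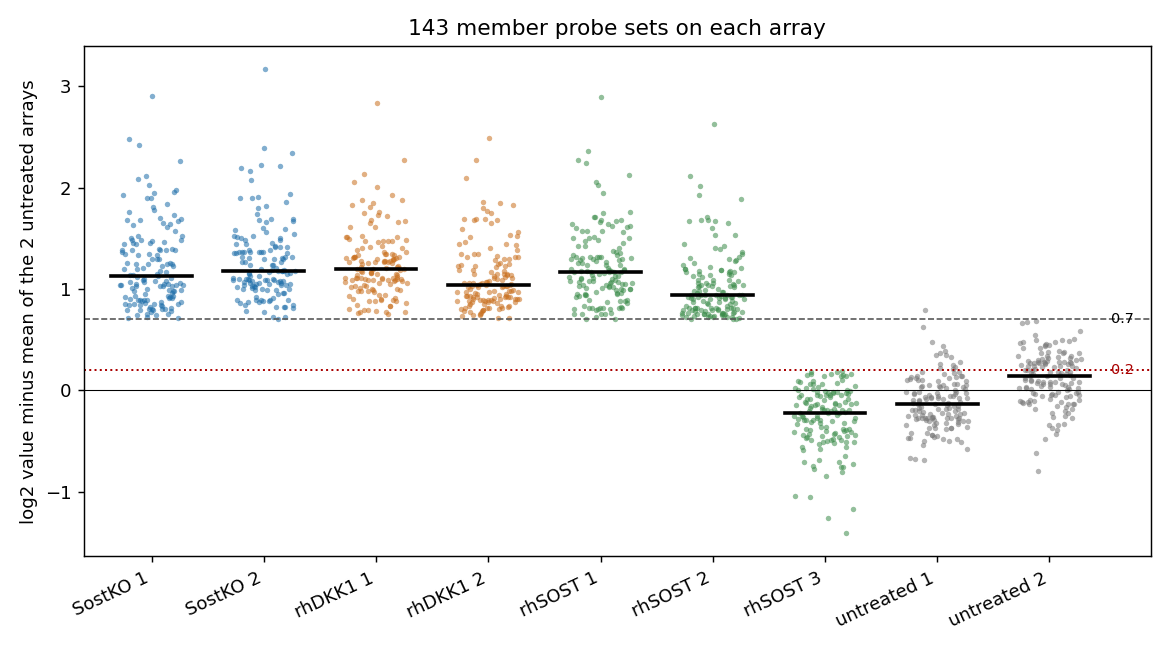
Rise of each of 143 member probe sets (points) on each of 9 arrays, as the log2 value minus the mean of the 2 untreated arrays, with the median as a black bar. The dashed line is the lower bound of 0.7 and the dotted line the upper bound of 0.2 for rhSOST array 3, where the median was -0.22.

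The untreated arrays also differed on these probe sets. Untreated array 2 was higher than untreated array 1 in 99 members, with a median difference of 0.27, and the absolute difference had a median of 0.41, against 0.12 over all kept probe sets. In 8 members the untreated arrays lay over 1 apart. Between replicates of a co-culture the absolute difference had a median of 0.18 for OB SostKO, 0.14 for rhDKK1 and 0.22 for rhSOST arrays 1 and 2, against 0.14, 0.10 and 0.10 over kept probe sets.

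Probe sets raised on the arrays held high did not split into 2 clean sets on rhSOST array 3. Of all 54613 probe sets, 282 (0.516%) were at least 0.7 above untreated PC3 on all 6. Besides the 143 members, 70 were between 0.2 and 0.7 on rhSOST array 3, and 69 were at or above 0.7 there. When each other co-culture array took the place of rhSOST array 3 in the rule, OB SostKO array 1 gave 2 probe sets and the other 5 arrays gave 0. In each exchange rhSOST array 3 became an array that had to be raised, where only 69 of the 282 reached 0.7. These counts are therefore not like for like with the 143. With the signs turned round, for probe sets lowered on 6 arrays and not on the seventh, rhSOST array 3 gave 1 probe set and every other co-culture array 0.

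**Figure D2:**
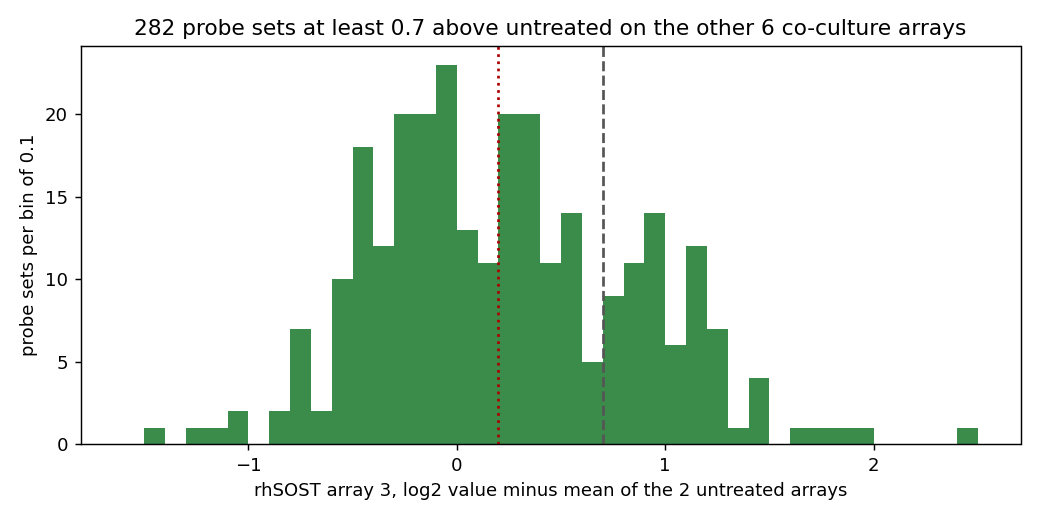
Number of probe sets per bin of 0.1 by their value on rhSOST array 3, as log2 value minus the mean of the untreated arrays, for the 282 probe sets at least 0.7 above untreated PC3 on the other 6 co-culture arrays. The 143 members lie left of the dotted line at 0.2, 70 lie between the lines and 69 right of the dashed line at 0.7.

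The bounds cut through a continuous range. The members nearest to the lower bound were 210098_s_at, which has no gene symbol, UQCRC2, a subunit of respiratory complex III, and NUDCD2, whose lowest rises on the arrays held high were 0.701, 0.702 and 0.704. Just outside it were probe sets of TFRC, the transferrin receptor, SLFN13 and GPR161, with lowest rises of 0.699, 0.698 and 0.695. At the upper bound, NAPEPLD, C18orf54 and NIPAL3 were 0.19, 0.18 and 0.18 above untreated PC3 on rhSOST array 3. DAAM1, a formin that assembles actin, a second NIPAL3 probe set and 230795_at, which has no symbol, were outside it at 0.21 each.

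Of the 143 members, 111 carry 1 gene symbol, 1 carries several and 31 carry none, and the 111 stand for 104 genes. The filter kept 139 members (97.2%), against 62.2% of all probe sets. A probe set can pass the filter through the arrays held high alone, so the rule itself favors a high share here. Genes on the array have a median of 2 probe sets, and the member genes have a median of 4 and a highest number of 12. Of the member genes, 3 have a single probe set. With 1 member each, 97 genes had 1 probe set that met the rule, and GNL3L, RBM25, PLPP3, MED18, STAG2, ZNF12 and ACER3 had 2 each.

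The ending of a probe set's name tells how its probes match. Probes of an _at set match 1 transcript, those of an _a_at set several transcripts of 1 gene, those of an _s_at set several transcripts that can come from different genes, and an _x_at set holds probes that also match other sequences. Among the members, 49 (34.3%, 95% Wilson interval 27.0 to 42.4) ended in _s_at, against 30.3% of the 310 other probe sets of the same genes, which lay within that interval, 26.6% of kept and 20.7% of all probe sets. The _at ending was carried by 86 members (60.1%, 52.0 to 67.8), against 58.4% of the other probe sets of the same genes, 61.6% of kept and 68.4% of all. There were 4 _x_at sets (2.80%), against 9.68% of the other probe sets and 9.33% of kept ones, and 4 _a_at sets (2.80%), against 1.61% and 2.39%. The intervals cover counting error only and treat probe sets as independent, which those of 1 gene are not. Of 88 members with an accession in the platform's annotation, 16 (18.2%) had a RefSeq mRNA, against 27.1% of all probe sets with one.

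**Figure D3:**
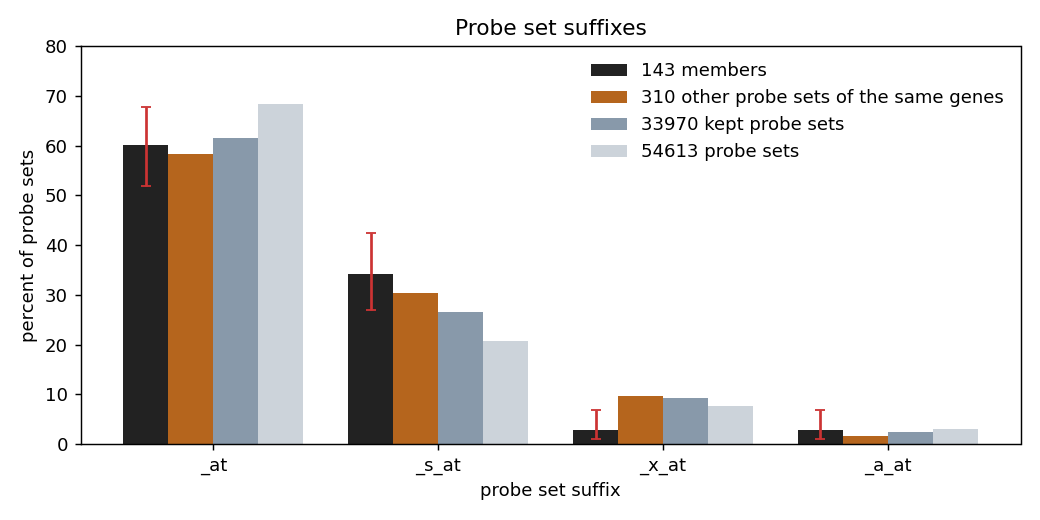
Percent of probe sets with each name ending among the 143 members (black, with 95% Wilson intervals), the 310 other probe sets of the same genes, the 33970 kept probe sets and all 54613. The _s_at share was 34.3% in members, 30.3% in the other probe sets of their genes and 26.6% in kept probe sets.

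Member genes spanned many functions. Of the 104 genes, 94 were placed in 11 classes by what they are known to do, after their values were seen, and the rest were not classed. Chromatin and transcription was the biggest class with 18 genes, followed by metabolism and mitochondria with 13, cytoskeleton and cell shape with 10, signaling with 10, membrane traffic and transport with 9 and splicing and RNA processing with 8. The median rise on the arrays held high lay between 0.93 for splicing and RNA processing and 1.38 for cytoskeleton and cell shape. Set against gene lists drawn up for these cells, members were 5 of 75 measured splicing genes, 8 of 89 chromatin and transcription regulators, 4 of 61 degradation genes, 7 of 80 cytoskeleton genes, 5 of 61 adhesion genes, 5 of 74 signaling genes, 5 of 74 traffic genes, 4 of 43 translation genes and 8 of 55 metabolism genes, beside 0.526% of all genes on the array. The lists hold genes that were picked from these same arrays, so the counts are no independent evidence of a function.

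Among genes of the cytoskeleton, SEPTIN7, which forms septin filaments, had the widest gap of all named members between the arrays held high and rhSOST array 3. Its probe set 1565823_at read 6.87 and 6.94 with OB SostKO, 6.87 and 6.12 with rhDKK1, 6.72, 6.49 and 3.87 with rhSOST and 4.57 and 4.62 in untreated PC3. The rise averaged 2.07 on the arrays held high (4.20-fold) and the gap was 2.80. The untreated values lay below the array medians, so this fold starts from a low signal. Other SEPTIN7 probe sets did not follow. Relative to untreated PC3, 213151_s_at was -0.37 to -0.15 on the 6 arrays and -0.03 on rhSOST array 3. It read far higher than the member, at 11.76 to 11.98 on the 6 arrays and 12.16 and 12.12 in untreated PC3. The rise of 217721_at was 0.02 to 0.34 on the 6 arrays and 0.33 on rhSOST array 3. MYO10, an unconventional myosin found at the tips of filopodia, had a member, 216222_s_at, at 9.22 and 9.25 with OB SostKO, 9.19 and 9.27 with rhDKK1, 9.01, 8.75 and 7.26 with rhSOST and 7.12 and 8.29 in untreated PC3. Here the untreated arrays lay over 1 apart, and rhSOST array 3 lay between them. Another 4 MYO10 probe sets averaged rises of -0.41 to 0.00 on the arrays held high. CNN3, a calponin that binds actin, read 9.88 and 9.72 on the OB SostKO arrays, 9.76 and 9.70 on the rhDKK1 arrays, 9.93 and 9.50 on rhSOST arrays 1 and 2, 7.86 on rhSOST array 3 and 8.98 and 7.74 on the untreated arrays with 228297_at. Its only other probe set, 201445_at, averaged -0.32 on the arrays held high. MARCKS, a substrate of protein kinase C that binds actin, read 8.37 to 8.78 on the 6 arrays held high, 6.77 on rhSOST array 3 and 7.01 and 6.93 in untreated PC3, and MYH10, a heavy chain of nonmuscle myosin, 8.03 to 8.33 on the 6 arrays held high, 6.50 on rhSOST array 3 and 6.17 and 7.50 in untreated PC3. MTPN, CDC42SE2, RFLNB, VASH2 and ANK3 were the other members of this class, with mean rises from 0.82 to 1.62.

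For genes of adhesion and the cell surface, LMO7, a protein of cell junctions, had the widest gap. Its member read 9.85 and 9.82 with OB SostKO, 9.77 and 9.66 with rhDKK1, 9.66, 9.26 and 7.43 with rhSOST and 7.999 and 8.93 in untreated PC3. The untreated arrays differed by 0.93 on it, and the 6 arrays held high lay above both, as in all 143 members. DCBLD2, a transmembrane receptor, read 10.49 to 10.94 on the 6 arrays held high, 8.62 on rhSOST array 3 and 9.16 and 9.20 in untreated PC3, and its rise averaged 1.46. LTBP1, which binds latent TGF-beta in the matrix, read 9.48 to 9.82 on the 6 arrays held high, 7.83 on rhSOST array 3 and 8.26 and 8.81 in untreated PC3. JAG1, a ligand of Notch receptors, read 8.47 to 8.74 on the 6 arrays held high, 6.81 on rhSOST array 3 and 7.68 and 6.90 in untreated PC3, while its other 4 kept probe sets averaged rises of -0.30 to 0.05. CRIM1, a transmembrane protein that binds bone morphogenetic proteins, read 10.12 and 10.20 on the OB SostKO arrays, 10.16 and 10.06 on the rhDKK1 arrays, 10.17 and 9.85 on rhSOST arrays 1 and 2, 8.67 on rhSOST array 3 and 9.07 and 9.11 on the untreated arrays with 228496_s_at. The CRIM1 rise averaged 1.01, and its other probe sets, 202551_s_at and 202552_s_at, averaged 0.23 and -0.01. ITGBL1 was the sixth gene of this class, with a mean rise of 0.99.

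PKP4 and FGFR2, which the study names beside SEPTIN7, MYO10, CNN3 and CRIM1, held no member. PKP4, a plakophilin of cell junctions, came near with 201927_s_at, whose rises were 1.32 and 1.38 with OB SostKO, 1.28 and 0.79 with rhDKK1, 1.41, 0.40 and -0.64 with rhSOST and -0.40 and 0.40 in untreated PC3. It missed the lower bound on rhSOST array 2 and was lowest on rhSOST array 3. Its other 4 probe sets averaged rises of -0.35 to 0.42. FGFR2, a receptor of fibroblast growth factors, had 1 probe set, 208229_at, with rises of 1.03 and 0.95 with OB SostKO, 1.16 and 1.20 with rhDKK1, 1.23, 0.89 and 0.23 with rhSOST and 0.06 and -0.06 in untreated PC3. It was above 0.7 on all the arrays held high and missed the upper bound on rhSOST array 3. In untreated PC3 it read 4.28 and 4.16, below the array medians. FGFR2 has 11 probe sets on the array, and the other 4 that passed the filter averaged rises of -0.19 to 0.25.

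Of the genes for splicing and RNA processing, ARGLU1, an arginine-rich protein tied to splicing and transcription, read 8.89 and 8.66 with OB SostKO, 8.66 and 8.84 with rhDKK1, 9.04, 8.66 and 6.40 with rhSOST and 7.46 and 6.51 in untreated PC3 with its member 228477_at. Its other 3 kept probe sets were lower with co-culture or near untreated PC3, with mean rises of -0.46 to -0.07. SRSF6, an SR protein that guides splice site choice, read 9.45 to 9.83 on the 6 arrays held high, 7.69 on rhSOST array 3 and 8.78 and 8.70 in untreated PC3. On rhSOST array 3 its value was over 1 below untreated PC3. RBM25, another splicing regulator, had 2 members, at 11.90 to 12.22 on the 6 arrays held high, 10.63 on rhSOST array 3 and 10.77 and 11.54 in untreated PC3 and at 9.27 to 9.44 on the 6 arrays held high, 7.94 on rhSOST array 3 and 7.60 and 8.60 in untreated PC3. DICER1, the enzyme that cuts microRNA precursors, read 8.60 to 9.02 on the 6 arrays held high, 7.47 on rhSOST array 3 and 7.24 and 7.89 in untreated PC3. PNISR, PRPF38B, TRMT13 and MTPAP also belonged here, with mean rises of 0.90 to 1.05.

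In chromatin and transcription, ZNF652, a zinc finger repressor, read 7.77 and 8.02 with OB SostKO, 7.90 and 8.14 with rhDKK1, 8.21, 7.92 and 5.53 with rhSOST and 6.72 and 6.69 in untreated PC3. rhSOST array 3 was 1.17 below untreated PC3, and the gap of 2.46 was the second widest of the named genes. MED18, a subunit of the Mediator complex, had 2 members, which read 7.32 to 7.71 on the 6 arrays held high, 5.07 on rhSOST array 3 and 6.61 and 5.02 in untreated PC3 and 7.32 to 7.59 on the 6 arrays held high, 6.28 on rhSOST array 3 and 6.88 and 6.14 in untreated PC3. The untreated arrays lay far apart on the first of these. SKI, a corepressor of TGF-beta signaling, read 8.89 and 9.09 on the OB SostKO arrays, 8.71 and 8.56 on the rhDKK1 arrays, 8.89 and 8.08 on rhSOST arrays 1 and 2, 6.68 on rhSOST array 3 and 6.53 and 7.20 on the untreated arrays. KAT6A, a histone acetyltransferase, read 4.83 to 5.96 on the 6 arrays held high, 3.36 on rhSOST array 3 and 3.98 and 4.11 in untreated PC3. These untreated values lay below the array medians. ETV5, an ETS transcription factor, read 7.11 to 7.54 on the 6 arrays held high, 5.58 on rhSOST array 3 and 5.76 and 5.39 in untreated PC3, EP400, a chromatin remodeler, 8.05 to 8.56 on the 6 arrays held high, 6.64 on rhSOST array 3 and 6.65 and 7.61 in untreated PC3, and CBX5, a heterochromatin protein, 8.76 to 9.19 on the 6 arrays held high, 7.40 on rhSOST array 3 and 7.45 and 7.21 in untreated PC3. For CBX5 the value on rhSOST array 3 lay between the untreated arrays. The class held 20 members with mean rises of 0.82 to 1.84.

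Members for DNA replication and division included RFC5, a subunit of the clamp loader of replication, at 10.61 to 11.11 on the 6 arrays held high, 8.71 on rhSOST array 3 and 9.70 and 9.25 in untreated PC3. GINS4, of the replicative helicase, averaged a rise of 0.88, and STAG2, a cohesin subunit, had 2 members with mean rises of 1.11 and 0.94. Among signaling genes, PPM1A, a phosphatase of SMAD and stress kinase pathways, read 8.97 to 9.34 on the 6 arrays held high, 6.91 on rhSOST array 3 and 7.92 and 7.42 in untreated PC3. RASSF3, PPP2R5E and RAP2A averaged rises of 1.14, 1.003 and 1.06. DUSP4, a phosphatase of MAP kinases, had tight replicates except for rhSOST array 3. It read 12.81 and 12.78 with OB SostKO, 12.79 and 12.88 with rhDKK1, 12.76, 12.73 and 12.003 with rhSOST and 11.98 and 12.04 in untreated PC3. rhSOST array 3 lay between the untreated arrays, and the other co-culture arrays were at least 0.7 above their mean, as the rule asked.

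For membrane traffic, RAB12, a small GTPase of recycling endosomes, read 10.01 and 10.16 with OB SostKO, 10.07 and 9.69 with rhDKK1, 9.98, 9.75 and 7.57 with rhSOST and 8.67 and 9.29 in untreated PC3. Its rise averaged 0.96, and rhSOST array 3 was 1.41 below untreated PC3, the lowest of all members. TMEM106B, a lysosomal membrane protein, read 8.84 to 9.24 on the 6 arrays held high, 6.94 on rhSOST array 3 and 7.45 and 7.99 in untreated PC3, MAGT1, a subunit of the oligosaccharyltransferase, 9.003 to 9.30 on the 6 arrays held high, 7.21 on rhSOST array 3 and 7.75 and 7.06 in untreated PC3, and ARF6, a GTPase of endocytosis, 9.64 to 10.06 on the 6 arrays held high, 8.19 on rhSOST array 3 and 8.69 and 8.48 in untreated PC3. CPNE8 averaged a rise of 1.25. In metabolism, PRPS2, which makes the ribose precursor of nucleotides, read 10.45 and 10.13 with OB SostKO, 10.14 and 10.13 with rhDKK1, 10.05, 10.05 and 7.80 with rhSOST and 8.06 and 8.61 in untreated PC3, a mean rise of 1.82. LYRM7, an assembly factor of respiratory complex III, read 7.42 to 7.65 on the 6 arrays held high, 5.22 on rhSOST array 3 and 6.74 and 6.22 in untreated PC3. PRELID3B, a mitochondrial lipid transfer protein, read 8.40 to 8.78 on the 6 arrays held high, 6.67 on rhSOST array 3 and 7.13 and 7.16 in untreated PC3. PLPP3, a lipid phosphatase, had 2 members with mean rises of 1.19 and 1.17.

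In translation and protein turnover, GNL3L, a nucleolar GTPase, had 2 members, with mean rises of 1.54 and 0.86, and the first read 7.65 to 7.98 on the 6 arrays held high, 5.99 on rhSOST array 3 and 6.38 and 6.19 in untreated PC3. FCF1, which takes part in making the small ribosomal subunit, averaged a rise of 1.11, and the initiation factors EIF5B and EIF4B 0.93 and 0.92. HSP90B1, the HSP90 of the endoplasmic reticulum, read 7.44 to 8.38 on the 6 arrays held high, 6.25 on rhSOST array 3 and 7.03 and 6.34 in untreated PC3 with an _x_at set. UBE2H, a ubiquitin-conjugating enzyme, read 4.78 to 6.20 on the 6 arrays held high, 3.76 on rhSOST array 3 and 3.73 and 3.89 in untreated PC3, and its values on the arrays held high were spread over more than 1. USP34, a deubiquitinase, and FBXL20, an F-box protein, averaged rises of 0.84 and 0.99, the second with a probe set under the filter. Members without a symbol included the widest gap of all: 231042_s_at read 7.13 and 7.39 with OB SostKO, 7.06 and 6.71 with rhDKK1, 7.12, 6.85 and 3.82 with rhSOST and 4.17 and 4.28 in untreated PC3, a 7.07-fold mean rise. Its untreated values, like those of UBE2H, lay below the array medians, so the fold starts from a low signal. 230265_at, also without a symbol, read 9.34 to 9.76 on the 6 arrays held high, 6.70 on rhSOST array 3 and 7.09 and 7.48 in untreated PC3.

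The rest of the probe sets of the same genes did not meet the rule, and most stayed near their level in untreated PC3. Any probe set of these genes that met the rule counts as a member, so the closest followers are not among the rest. There were 310 such probe sets, of which 266 passed the filter, for 100 of the 104 genes. They can read the same RNA as a member and are not independent of each other within a gene. Their median rise was 0.04 and 0.11 on the OB SostKO arrays, 0.11 and 0.08 on the rhDKK1 arrays and 0.09, 0.10 and 0.06 on the rhSOST arrays, against -0.0043 to 0.02 over kept probe sets that are not members. The mean rise on the arrays held high had quartiles of -0.05 and 0.31 and was below 0 in 89 of 266 (33.5%), against 50.4% of kept probe sets that are not members. It reached 0.7 in 16 (6.02%), against 1.53%. A gap of at least 0.7 between the arrays held high and rhSOST array 3 was seen in 33 (12.4%), against 3.86%, and these came from 26 genes. For 54 of the 100 genes no other kept probe set had a mean rise of 0.3 or more.

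**Figure D4:**
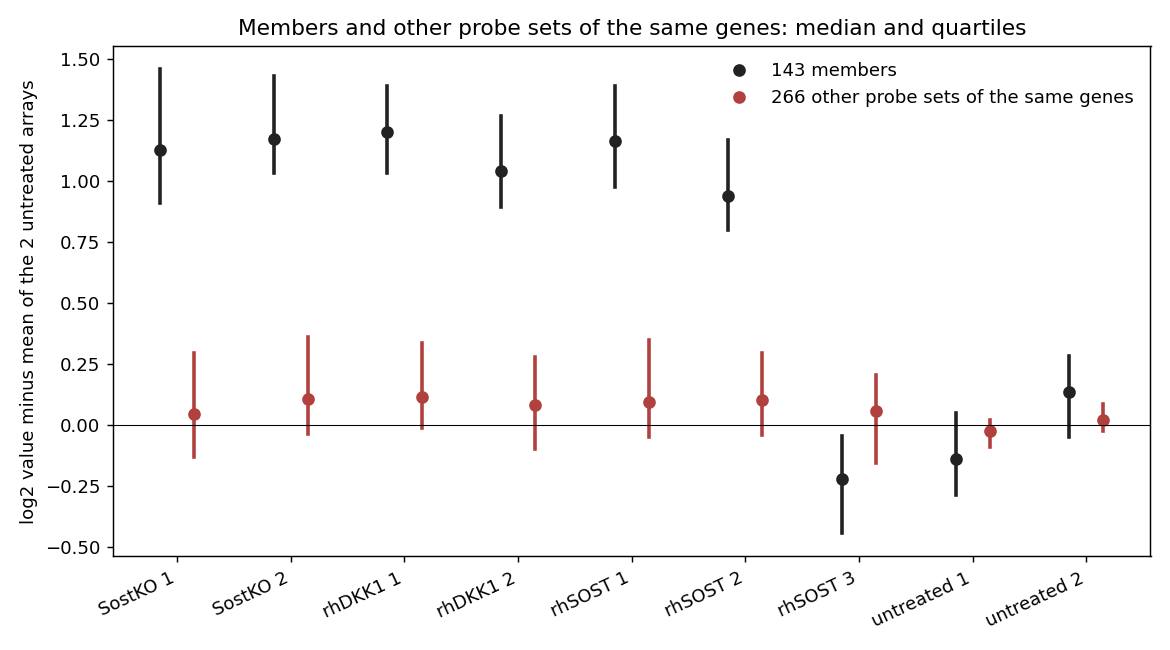
Median (points) and quartiles (lines) of the log2 value minus the mean of the untreated arrays on each of the 9 arrays, for the 143 members and the 266 other kept probe sets of the same genes. The medians of the other probe sets stayed between 0.04 and 0.11 on all 7 co-culture arrays.

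Among member genes with at least 3 other kept probe sets, the 10 with the widest gap differed in whether another probe set followed. For ZNF652, 235577_at was 1.33 to 2.11 on the 6 arrays and 0.25 on rhSOST array 3 and just missed the upper bound, 205594_at was 0.27 to 0.56 on the 6 arrays and -0.47 on rhSOST array 3, and 225266_at was -0.18 to 0.11 on the 6 arrays and 0.31 on rhSOST array 3. For MARCKS, 201668_x_at was 0.56 to 1.90 on the 6 arrays and -0.53 on rhSOST array 3, while 201669_s_at, 201670_s_at and 225897_at averaged -0.09, 0.04 and 0.26. ETV5 had 1 follower, 203348_s_at, at 0.65 to 1.09 on the 6 arrays and -0.51 on rhSOST array 3. PPM1A and DCBLD2 each had a probe set that was low on rhSOST array 3 with a smaller rise elsewhere: 210407_at was 0.13 to 0.58 on the 6 arrays and -1.12 on rhSOST array 3, and 213865_at was -0.24 to 0.86 on the 6 arrays and -1.003 on rhSOST array 3. In LYRM7, MYO10, C18orf54 and JAG1 no other kept probe set had a gap of 0.5 or more. ARGLU1 had 222508_s_at, with a mean rise of -0.17 and 0.75 between the arrays held high and rhSOST array 3.

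**Figure D5:**
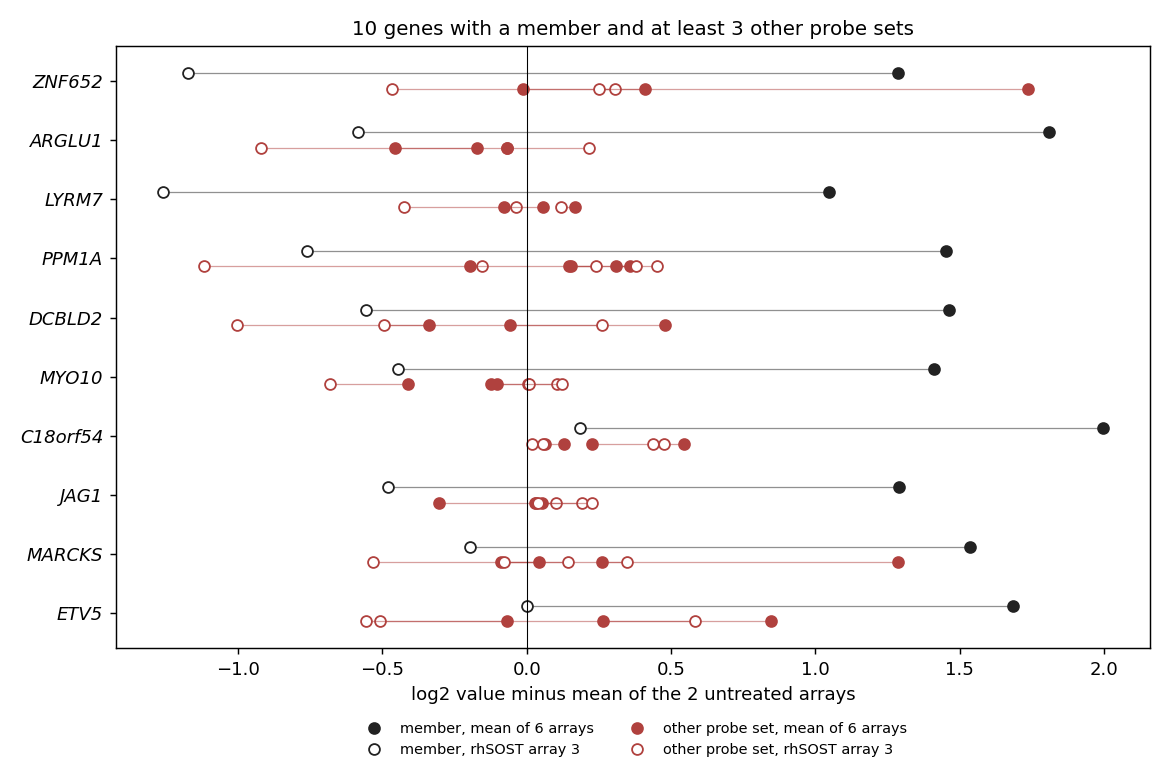
Mean rise over the 6 arrays held high (filled) and value on rhSOST array 3 (open), as log2 value minus the mean of the untreated arrays, for the member (black) and the other kept probe sets (red) of 10 genes. Black filled points lie between 1.05 and 2.00, and the red filled points lie between -0.46 and 0.54 except for 1 probe set each of ZNF652, MARCKS and ETV5.

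The other probe sets, those of the same genes that did not meet the rule, were tested with limma. The fit covered all 33970 kept probe sets, with adjusted p-values from Benjamini-Hochberg. Probe sets that met the rule are members and are left out of the counts of other probe sets. With OB SostKO, 6 of 266 (2.26%) were higher than in untreated PC3 and 1 was lower at an adjusted p under 0.05, against 0.901% of all kept probe sets higher and 0.718% lower. With rhDKK1, 9 (3.38%) were higher and 2 lower, against 1.03% and 0.721%. With rhSOST, 16 (6.02%) were higher and 1 was lower, against 2.66% and 1.32%. The 3 comparisons share the untreated arrays. No call reached a 2-fold difference. Without rhSOST array 3, 17 were higher and 4 lower with OB SostKO (2.78% and 1.56% of all kept probe sets), 19 and 4 with rhDKK1 (2.64% and 1.37%) and 19 and 3 with rhSOST (3.35% and 1.54%). With any 1 of the other 8 arrays left out, 0 to 2 were called either way with OB SostKO, 0 to 10 with rhDKK1 and 0 to 15 with rhSOST, and there were 0 in every comparison without untreated array 1. Of all kept probe sets, 8 to 120 were then higher and 20 to 114 lower with OB SostKO. These were 7 to 271 and 20 to 183 with rhDKK1, and 50 to 753 and 46 to 372 with rhSOST. With cyclic loess, 12 were higher and 4 lower with rhSOST, against 661 and 527 of all kept probe sets.

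The other probe sets called higher in all 3 comparisons were 6, for RFLNB, GNAS, MYH10, ZNF12, C18orf54 and ZNF667. The share of all kept probe sets called higher in all 3 was not counted. The comparisons share the untreated arrays, so the 6 are listed as a description only. RFLNB, a filamin-binding protein, had 226905_at, which read 7.40 and 7.32 with OB SostKO, 7.45 and 7.47 with rhDKK1, 7.37, 7.59 and 7.49 with rhSOST and 6.80 and 6.76 in untreated PC3. Its limma log2 fold change was 0.58 ± 0.09 with OB SostKO (SE, adjusted p = 0.0304), 0.68 ± 0.09 with rhDKK1 (adjusted p = 0.0177) and 0.71 ± 0.08 with rhSOST (adjusted p = 0.00744). Unlike the RFLNB member, this probe set was as high on rhSOST array 3 as on the other co-culture arrays. GNAS, the stimulatory G protein alpha subunit, had 214157_at at 8.58 and 8.58 with OB SostKO, 8.55 and 8.46 with rhDKK1, 8.63, 8.61 and 8.55 with rhSOST and 8.001 and 8.09 in untreated PC3. Its log2 fold change was 0.53 with OB SostKO, 0.46 for rhDKK1 and 0.55 for rhSOST, and rhSOST array 3 lay inside the range of the co-culture arrays. Another GNAS probe set, 217057_s_at, was higher with rhDKK1 and with rhSOST. ZNF678 and PLPP3 were higher with rhDKK1 and with rhSOST, through 230534_at and 212230_at, with log2 fold changes of 0.80 and 0.73 with rhDKK1 and 0.84 and 0.75 with rhSOST. MYH10, with 212372_at, was higher by 0.44 with OB SostKO, by 0.47 with rhDKK1 and by 0.46 with rhSOST. Lower was 212888_at of DICER1 with OB SostKO and rhDKK1, with log2 fold changes of -0.56 and -0.55. The other kept DICER1 probe set that is not a member had a mean rise of 0.89 on the arrays held high. Also lower were a probe set of SRSF6 with rhDKK1, at -0.55, and of MYO10 with rhSOST, at -0.53. The DICER1, SRSF6 and MYO10 members were at least 0.7 above untreated PC3 on the arrays held high because the rule asked for it.

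Between the co-cultures, limma called 0 of 266 other probe sets and 0 of 33970 kept probe sets at an adjusted p under 0.05 for OB SostKO against rhSOST and for rhDKK1 against rhSOST. At an unadjusted p under 0.05, 2 other probe sets were higher and 7 lower with OB SostKO than with rhSOST, against 0.98% and 2.45% of all kept probe sets. With rhDKK1, 2 were higher and 3 lower than with rhSOST, against 0.836% and 1.49%. The smallest adjusted p was 0.843 for OB SostKO and 1 for rhDKK1, so no probe set is described further.

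Between co-cultures the members are described without a test, since the rule held the arrays of each up and rhSOST array 3 down. The median difference of the members between OB SostKO and rhSOST was 0.56 with rhSOST array 3 and 0.12 without it, and between rhDKK1 and rhSOST 0.51 with it and 0.03 without it. Between OB SostKO and rhDKK1 the median difference was 0.06.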

How the data were processed

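Gene expression was measured on 9 arrays. Log2 values were deposited by the authors, who made them with RMA (named in the submitters' processing notes, with no version). Groups and replicate numbers came from the sample labels. Symbols came from the platform annotation, brought to current RefSeq names. The members and the gene lists were chosen with earlier results of these data known.

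Of 54675 probe sets, 62 controls were left out. limma 3.58.1 in R 4.3.3 fitted a mean for each of 4 groups over all 9 arrays (lmFit, eBayes), with Benjamini-Hochberg adjustment over 33970 probe sets at or above the 40th percentile of the array on at least 2 arrays. It was tested on simulated data. The number of arrays limits the precision.

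Named genes were the 20 with the widest gap, the 6 the study names, up to 4 members of each list, genes with 2 members, the 10 with the widest gap among genes with at least 3 other kept probe sets, those at the bounds, and the other probe sets with the smallest adjusted p. Genes named beyond these were chosen after their values were seen. The comparison of OB SostKO with rhDKK1, leaving out single arrays from the rule and the crossed block were added after seeing the data. Alternatives were other bounds, filters, cyclic loess and thresholds, fewer groups, a replicate block and single arrays left out.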

Additional observations from a re-analysis of the deposited data

Results flagged for a closer look

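Control probe sets that no comparison used differed between co-cultures and untreated PC3, with every array of the group above both untreated arrays. The difference between the 3' and 5' ends of ACTB was larger by 0.63 with OB SostKO, by 0.40 with rhDKK1 and by 0.91 with rhSOST than in untreated PC3. The control for Alu repeats was 0.165 higher with OB SostKO and 0.171 higher with rhDKK1. With rhSOST, arrays 1 and 2 read 14.34 and 14.28 on this control and array 3 read 14.10, against 14.13 and 14.15 in untreated PC3. On this control rhSOST array 3 thus lay below both untreated arrays. A link to the members was not tested.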

How the results depend on the processing

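The number of members followed the bounds: it was 49 with a lower bound of 1.0 and 344 with 0.5. With untreated array 1 alone as the reference, 278 probe sets met the rule, 110 of them members. With rhSOST array 3 left out there were 282, and with a co-culture array that was held high left out 143 to 200. Under 5 other choices, 118 to 183 met it. The percent of members ending in _x_at was 0 at a lower bound of 1.0, and the percent ending in _a_at was 0 with untreated array 2 alone as the reference.

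Counts of calls are small and moved with the threshold and with single arrays, and 2 or 3 arrays a group limit every count. With a 2-fold difference added, 81 of all kept probe sets passed with OB SostKO, 91 for rhDKK1 and 103 for rhSOST, in place of 550, 595 and 1355, and 0 other probe sets of the member genes passed in each. At an unadjusted p under 0.05 and 2-fold these were 276, 235 and 134 of all and 3, 2 and 1 of the other probe sets, and 4 of all for OB SostKO against rhSOST and 1 for rhDKK1 against rhSOST. With the 2 groups alone, 60, 0 and 148 of all and 1, 0 and 2 of the other probe sets passed. With no filter, 365 of all and 2 other probe sets passed with OB SostKO. For rhDKK1 with no filter 7 other probe sets passed, beside 249 higher and 188 lower of all. A 60th percentile filter gave 12 other probe sets with OB SostKO, beside 410 higher and 316 lower of all. Cyclic loess gave 661 higher and 527 lower of all with rhSOST, in place of 905 and 450. With 1 array left out, 33 to 1475 of all and 0 to 21 other probe sets passed with OB SostKO, 27 to 1363 and 0 to 23 with rhDKK1, and 96 to 1661 and 0 to 22 with rhSOST. Each highest count was that without rhSOST array 3.

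Replicate numbers do not link arrays across groups: the correlation of the deviations of same-numbered arrays was -0.54 for OB SostKO and rhDKK1, -0.37 for rhDKK1 and untreated PC3 and 0.46 for rhDKK1 and rhSOST. A replicate block, in which rhSOST array 3 has a term of its own, called 5 other probe sets with rhDKK1. Of all kept probe sets, 397 were higher and 172 lower there. With rhSOST the block called 7 other probe sets and 696 of all. A block with the rhDKK1 numbers crossed called 1269 of all and 24 other probe sets with rhDKK1 against untreated PC3.

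The median rise of the other probe sets stayed between -0.0061 and 0.15 on every co-culture array under every choice run. With the brightest other probe set of each gene it was -0.0061 on OB SostKO array 1, 0.065 on rhDKK1 array 1, 0.053 on rhSOST array 1 and 0.134 on rhSOST array 3. With _at sets alone it was 0.114 on rhDKK1 array 2, 0.153 on rhSOST array 2 and 0.093 on rhSOST array 3. Against untreated array 1 alone it was 0.142 on rhSOST array 2 and 0.094 on rhSOST array 3, and against untreated array 2 alone 0.030 on rhDKK1 array 2, 0.069, 0.080 and 0.016 on rhSOST arrays 1, 2 and 3. It was 0.069 on rhSOST array 1 with no filter and 0.021 on rhSOST array 3 with cyclic loess.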
